A study of Mus musculus with 5 samples.

Results

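A set of 10 genes of the extracellular matrix and its receptors were read in CD45hi monocytes and CD45lo microglia sorted from remyelinating lesions: *Sparc*, *Vcan*, *Fn1*, *Thbs1*, *Tgfbi*, *Ecm1*, *Cd44*, *Lgals3*, *Mmp14* and *Timp2*. They were picked by gene symbol, and all 10 were found among the 49671 genes of the FPKM table and, by gene identifier, among the 24984 genes of the count table. The choice was made with levels in these same libraries known, so their values are a description: no p is given for a member, and where calls of the whole-table fits are counted, nothing is read from them. The libraries came from wild-type male C57BL/6J mice of 10 weeks, in which 2 µl of 1% lysolecithin (LPC), a lipid toxic to myelin, was injected into the corpus callosum. Lesions were taken at 10 days post-lesion (dpl), and CD11b+ Ly6G- CD3- cells were split by CD45 into 2 monocyte libraries (CD45hi; the sample labels call them monocyte-derived macrophages) and 3 microglia libraries (CD45lo). All 5 libraries thus shared genotype, lesion and time, and no unlesioned group was analysed here. The study gives the size of its sequencing groups in mice, in numbers that match the libraries, while the labels do not tie a library to a mouse.

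The extracellular matrix of white matter is rich in hyaluronan, a sugar polymer, and in proteoglycans of the lectican family such as versican, the product of *Vcan*. After demyelination the matrix is rebuilt: fibronectin (*Fn1*) and proteoglycans build up, and both are known to hinder the maturation of oligodendrocyte progenitors. Matricellular proteins (*Sparc*, *Thbs1*, *Tgfbi*) are secreted and bind matrix and cells without forming its scaffold. CD44 is the main cell-surface receptor for hyaluronan. Galectin-3 (*Lgals3*) binds sugars on glycoproteins. Membrane-type matrix metalloproteinases such as the product of *Mmp14* cut matrix proteins, and the inhibitor encoded by *Timp2* both blocks such enzymes and takes part in activating the gelatinase proMMP2.

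The libraries differed in ways that touch every value below. The study reports a far smaller cell yield per mouse for monocytes than for microglia, and the effect of cell number on these values was not tested. Counts assigned to genes numbered 3417150 and 6514611 in monocytes, against 5890081 to 9021700 in microglia, and genes with 10 or more reads numbered 1392 and 4230, against 5994 to 11653. Mitochondrially encoded genes held 39.9% and 28.5% of counts in monocytes, against 11.1 to 39.0% in microglia. The 10 genes with the most reads held 50.1% and 31.5%, against 14.1 to 40.6%. FPKM and CPM are scaled by these library totals, while the fold changes use TMM scaling, whose factors were 0.0929 and 0.611 in monocytes, against 1.71 to 3.76 in microglia. Of the 10105 genes tested, the median log2 fold change (monocytes over microglia) was −1.11 by TMM, against −4.73 when library totals set the scale. Monocyte library 1, with the fewest counts and the lowest factor, therefore stands apart, and results that rest on it are given without it. Reads of classical monocyte markers did not set the monocyte gate apart in these libraries. *Ccr2* had 0 reads in both monocyte libraries. Of 11 such markers, the 8 in the count table summed to 0 and 2.30 CPM in monocytes, against 0.170 to 11.5 CPM in microglia. The study has other evidence for the gate: in *Ccr2* reporter mice every CD45hi lesion cell carried RFP, and part of the CD45hi cells stained for Ly6C. It also reports higher levels of monocyte-enriched genes in the CD45hi gate. The 10 markers of microglia summed to 3071 and 7470 CPM in monocytes, against 9954 to 21991 CPM in microglia, and all 10 had reads in every library. The names monocytes and microglia are used here for the sort gates. In bulk libraries, fewer cells that express a gene and less RNA per cell cannot be told apart.

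Of the 10 genes, *Sparc* and *Cd44* had a higher FPKM in each monocyte library than in any microglia library, *Timp2* a lower one in each, and the other 7 overlapped. Over all genes tested the shares were 0.673% above and 48.0% below. *Sparc*, *Vcan*, *Fn1* and *Cd44* had their highest level in monocyte library 1 and *Lgals3* in monocyte library 2, while *Thbs1*, *Mmp14*, *Timp2* and *Ecm1* peaked in microglia library 1 and *Tgfbi* in microglia library 3. Within microglia, 8 of the 10 genes were lowest in library 3, all but *Tgfbi* and *Timp2*. The level of *Sparc* exceeded that of every other member in each library. Below *Sparc*, only *Timp2* stood clear of its neighbour in microglia. In monocytes the ranges of neighbouring genes from *Fn1* down to *Cd44*, by mean FPKM *Fn1*, *Vcan*, *Lgals3*, *Timp2* and *Cd44*, overlapped each other.

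**Figure D1:**
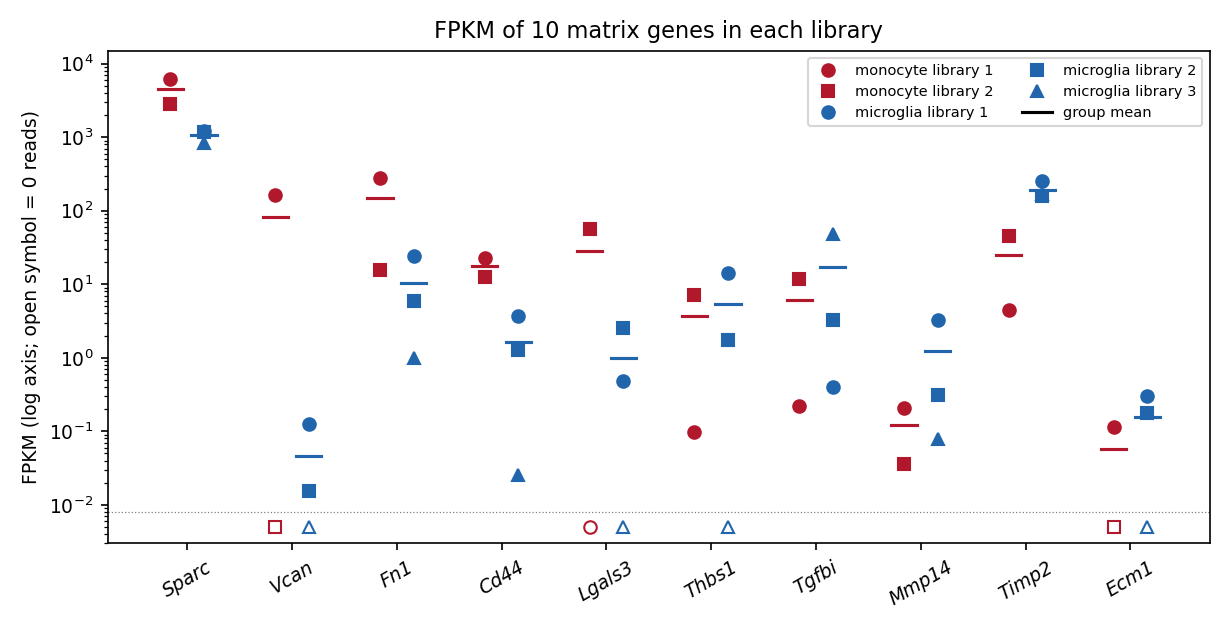
FPKM of the 10 genes (log axis) in 2 monocyte libraries (red, left of each pair) and 3 microglia libraries (blue); bars are group means and open symbols below the dotted line are libraries with 0 reads. *Sparc* and *Cd44* lie above, and *Timp2* below, in both monocyte libraries, and *Vcan* and *Lgals3* were read deeply in only 1 of them.

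The sequence before the transcription start is shown for *Cd44* and *Vcan*, the hyaluronan receptor that was higher in both monocyte libraries and the hyaluronan-binding proteoglycan that was read in only 1 of them. Each window holds the 250 bases upstream of the RefSeq start in GRCm38.p6, 5′ to 3′ on the gene's own strand (minus for both), at chr2:102901666-102901915 and chr13:89742513-89742762. Capitals mark a GC box (GGGCGG) on either strand.
Cd44: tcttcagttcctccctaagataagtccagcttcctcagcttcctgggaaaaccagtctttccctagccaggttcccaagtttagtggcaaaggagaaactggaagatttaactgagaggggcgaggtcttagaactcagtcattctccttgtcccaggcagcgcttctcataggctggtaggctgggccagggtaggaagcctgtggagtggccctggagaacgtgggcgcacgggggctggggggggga
Vcan: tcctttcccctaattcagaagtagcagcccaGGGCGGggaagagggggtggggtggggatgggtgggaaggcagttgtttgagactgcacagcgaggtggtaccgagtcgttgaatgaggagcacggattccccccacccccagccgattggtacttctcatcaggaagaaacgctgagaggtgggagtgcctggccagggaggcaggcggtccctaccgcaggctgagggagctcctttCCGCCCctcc
The *Vcan* window held 2 GC boxes, and the *Cd44* window held none in these letters. Over 32851 windows of the same length, 32.7% held the GC box. Both strands were also searched for the AP-1 site TGANTCA, which 6.75% of all windows held. The TATA box was searched as TATAAA, in 12.4% of windows. The PU.1 site was searched as GAGGAAGT, in 2.44% of windows. Neither gene's window held any of these 3, and no matches overlapped. Windows were found for 8 of the 10 genes, not for *Fn1* and *Thbs1*. Those of *Sparc* and *Timp2* lie largely in annotated exons (238 and 203 of 250 bases in GENCODE vM21), and they are named only. These libraries hold no measure of promoter activity, and the matches describe sequence alone.

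*Sparc* encodes a secreted, collagen-binding glycoprotein that in the adult brain is made by microglia among other glia (chromosome 11, 55394500 to 55423183 in GRCm38). It was at 6271 and 2857 FPKM in monocytes, against 1204, 1191 and 832 FPKM in microglia. Both monocyte libraries thus lay above the microglia, by 4.24 times between the group means (4564 ± 2414 FPKM, SD, n = 2, against 1076 ± 211 FPKM, n = 3). It was among the most abundant genes of either gate, ranking 11 and 9 among all genes by FPKM in monocytes and 29, 17 and 33 in microglia. Its reads made up 2.38% and 1.08% of all counts in monocytes, against 0.456%, 0.451% and 0.315% in microglia; the 95% exact binomial intervals were 2.36 to 2.39% and 1.07 to 1.09%, against 0.451 to 0.461%, 0.447 to 0.456% and 0.311 to 0.320%. Such intervals hold for counting error alone, because reads from amplified cDNA repeat the same molecules. The monocyte libraries also lay above the microglia under TMM scaling, with another size of difference and the microglia libraries in the opposite order: TMM-scaled CPM were 264421 and 17785 in monocytes, against 1232, 1665 and 1856 in microglia. The fitted log2 fold change was 6.48 (standard error 3.17) with TMM, 2.10 with library totals and 3.19 (standard error 1.29) without monocyte library 1. Astrocytes and endothelial cells also make SPARC. The 7 astrocyte markers in the count table summed to 1.46 and 51.3 CPM in monocytes, against 26.1 to 97.4 CPM in microglia, with *Aldh1l1* and *Gja1* at 0 reads in every library. *Slc1a2* had 0 and 269 reads in monocytes, against 2, 30 and 0 in microglia. *Slc1a3* had 5 and 65 reads, against 631, 540 and 153. The 11 endothelial and mural markers summed to 2.63 and 496 CPM in monocytes, against 11.04 to 98.0 CPM in microglia. Most of the higher monocyte sum was *Flt1*, while *Cldn5* had 1 and 0 reads in monocytes, against 0 in each microglia library. *Kdr* had 1 and 0 reads in monocytes, against 109, 132 and 55 in microglia. The part of these cells in the *Sparc* level was not tested.

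Versican is a large chondroitin sulphate proteoglycan that binds hyaluronan (*Vcan*, chromosome 13, 89655312 to 89742509). *Vcan* had 8006 and 0 reads in monocytes, or 162 and 0 FPKM, against 12, 2 and 0 reads in microglia, or 0.125, 0.0153 and 0 FPKM. All of its monocyte reads thus came from library 1. By counting error alone, which leaves out molecules lost before amplification, a count of 0 in monocyte library 2 allowed up to 0.0318 FPKM (3 counts). The 2 monocyte libraries therefore differed from each other more than monocyte library 2 differed from microglia. *Vcan* was not alone in this: 18 genes combined at least 1000 reads in monocyte library 1 with 0 in the other. Oligodendrocyte progenitors also express *Vcan*, and their markers *Pdgfra*, *Olig1*, *Olig2* and *Sox10* had 0 reads in all 5 libraries. As a list the 7 progenitor markers summed to 2.63 and 13.05 CPM in monocytes, against 1.19 to 150 CPM in microglia. Most of each sum was *Cspg4*, with 8 and 85 reads in monocytes, against 996, 313 and 7 in microglia. The part of progenitors in the *Vcan* level was not tested.

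Fibronectin, which forms fibrils that bind integrins, is encoded by *Fn1* (chromosome 1, 71585520 to 71653200). It was at 282 and 15.6 FPKM in monocytes, against 24.1, 5.95 and 1.00 FPKM in microglia. Monocyte library 1 lay far above all others, and monocyte library 2 lay within the microglial range. With TMM factors both monocyte libraries lay above the microglia, at 36618 and 300.0 CPM, against 76.0, 25.7 and 6.89 CPM, an order that 5.00% of all genes tested had on that scale. The log2 fold change was 8.99 (standard error 3.09), 3.87 with library totals and 2.80 without monocyte library 1. An annotated antisense gene overlaps *Fn1* exons and had 0 reads here. Fibroblasts, a rich source of fibronectin, were represented by 6 markers that summed to 3.80 and 0.154 CPM in monocytes, against 0 to 0.222 CPM in microglia, with *Col1a2* and *Pdgfra* at 0 reads in every library. *Col1a1*, *Col3a1* and *Pdgfrb* had 6, 1 and 2 reads in monocyte library 1, the library highest for *Fn1*, and 0 in the others. *Fbln1* had 4 and 1 reads in monocytes, against 0, 2 and 0 in microglia. The part of fibroblasts in the *Fn1* level was not tested.

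The thrombospondin gene *Thbs1*, whose product binds CD47 and CD36 and can activate latent TGF-β, overlapped between the gates. It was at 0.0964 and 7.23 FPKM in monocytes (2 and 286 reads), against 14.2, 1.73 and 0 FPKM in microglia (572, 95 and 0 reads). The spread within each gate thus covered most of the range. *Tgfbi*, which encodes a TGF-β-induced adhesion protein, was at 0.219 and 11.9 FPKM in monocytes, against 0.394, 3.23 and 48.3 FPKM in microglia. Here microglia library 3, lowest for most members, was the highest of all 5. *Ecm1*, which encodes a glycoprotein that binds perlecan and fibulin-1, had 1 and 0 reads in monocytes, against 5, 4 and 0 in microglia, too few for the expression filter. With library totals in place of TMM the log2 fold change of *Thbs1* was −0.55 instead of 2.15 (standard error 1.78), and that of *Tgfbi* was −1.52 instead of 0.19 (standard error 1.79). Platelets carry much thrombospondin-1, and their 5 markers summed to 0.293 and 0 CPM in monocytes, against 8.89, 6.54 and 17.0 CPM in microglia. The sum in microglia library 3, where *Thbs1* had 0 reads, was *Gp9* alone (100 reads). The part of platelets in the *Thbs1* level was not tested.

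*Cd44* (chromosome 2, 102811141 to 102901665) was the member besides *Sparc* that was higher in both monocyte libraries. It had 531 and 559 reads in monocytes, against 164, 79 and 1 in microglia, which corresponds to 22.9 and 12.7 FPKM in monocytes, against 3.65, 1.29 and 0.0251 FPKM in microglia. The lower monocyte value was still above the highest microglial one. The group means differed by 10.8 times (17.8 ± 7.26 FPKM, SD, n = 2, against 1.66 ± 1.84 FPKM, n = 3), on a level well below that of *Sparc*. The same order held with TMM factors (1730 and 141 CPM, against 6.68, 3.23 and 0.0999 CPM), and the log2 fold change was 8.12 (standard error 2.51), 3.44 with library totals and 5.14 without monocyte library 1. The galectin-3 gene *Lgals3* (chromosome 14, 47367751 to 47386160) showed the reverse of *Vcan*: it had 0 and 682 reads in monocytes (0 and 56.3 FPKM), against 6, 42 and 0 in microglia (0.487, 2.51 and 0 FPKM). Its monocyte reads all came from library 2, and 0 reads in monocyte library 1 allowed up to 0.473 FPKM, again by counting error alone. In the same way, 190 genes combined at least 500 reads in monocyte library 2 with 0 in the other. Its log2 fold change of 7.01 (standard error 2.13) turned to −6.34 (standard error 12.06) without monocyte library 2.

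Of the genes of matrix breakdown, *Timp2* (chromosome 11, 118301069 to 118355740) was the only member lower in both monocyte libraries. It was at 4.51 and 45.9 FPKM in monocytes, against 254, 161 and 167 FPKM in microglia. All microglia libraries thus lay above both monocyte libraries, and the group means were 25.2 ± 29.3 FPKM in monocytes (SD, n = 2) and 194 ± 52.1 FPKM in microglia (SD, n = 3). This order rests on library totals: with TMM factors *Timp2* was at 195 and 294 CPM in monocytes, against 267, 231 and 382 CPM in microglia, and the groups overlapped. On that scale 0 members lay below the microglia in each monocyte library, against 21.3% of all genes tested, and 3 (*Sparc*, *Fn1* and *Cd44*) lay above them in each, against 5.00%. The log2 fold change was −0.26 (standard error 2.01) by TMM, 0.37 by RLE factors and −2.95 by library totals. *Timp2* was nonetheless the most abundant member after *Sparc* in microglia. *Mmp14*, which encodes a membrane-bound collagenase, had 3 and 1 reads in monocytes, against 93, 12 and 2 in microglia (0.204 and 0.0357 FPKM, against 3.26, 0.309 and 0.0790 FPKM). Most of its reads came from microglia library 1, and it did not pass the expression filter.

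The expression filter kept 8 of the 10 genes, all but *Mmp14* and *Ecm1*. Across the whole table of 10105 genes, edgeR's quasi-likelihood test with Benjamini-Hochberg adjustment called 0.0594% higher in monocytes and 0.0% lower at an adjusted p under 0.05. Among the 8 genes it called 1, *Vcan*, higher and 0 lower, and since levels in this contrast entered the choice of the genes, nothing is read from that count. The call was absent with limma-voom, with library totals, with no expression filter and in each fit that left out 1 microglia library (without microglia library 1, *Vcan* was not tested). Without monocyte library 1, *Vcan* was not tested and *Lgals3* was the 1 member called (2.61% of all genes were called higher in that fit), and without monocyte library 2 the members called were *Cd44*, *Fn1*, *Sparc* and *Vcan* (2.51% of all genes). Limma-voom called *Cd44* and *Fn1*, beside 0.317% of all genes. DESeq2 called 5, adding *Lgals3*, *Sparc* and *Vcan*, beside 19.5% of the 5056 genes to which it gave an adjusted p, and it gave none to *Tgfbi*. In the fits with 1 monocyte library, that library was assumed to vary as the microglia do.

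**Figure D2:**
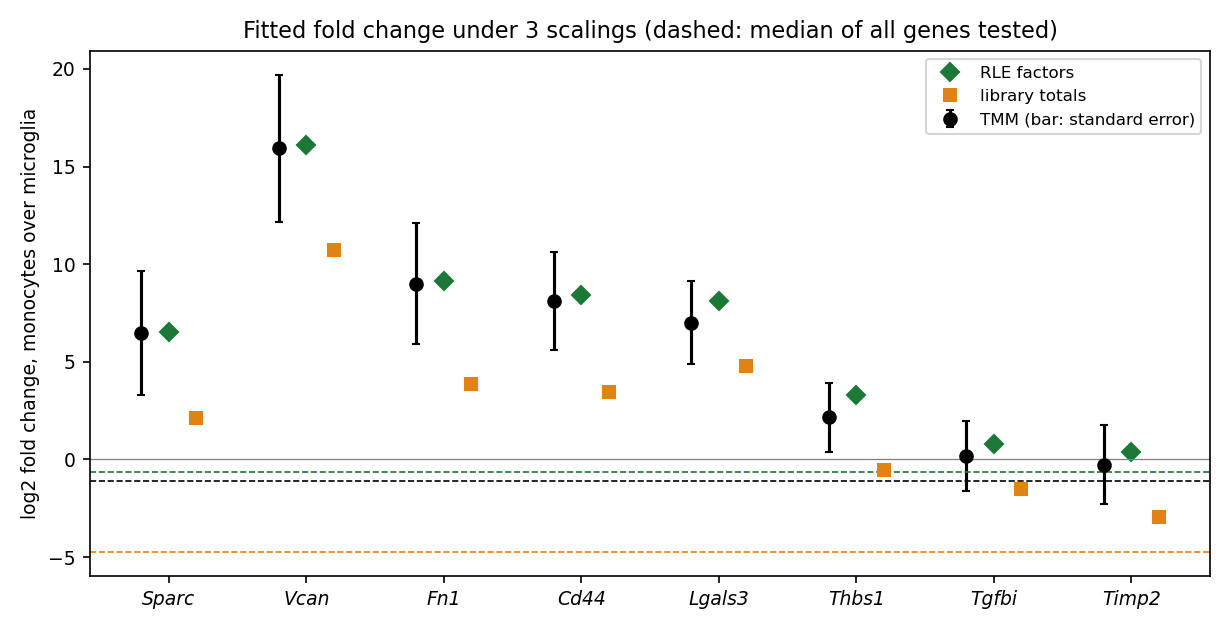
Log2 fold change of monocytes over microglia from edgeR for the 8 genes that passed the expression filter, with TMM (black, bars are standard errors), RLE factors (green) and library totals (orange); dashed lines are the medians of all genes tested under each scaling. *Thbs1*, *Tgfbi* and *Timp2* lie on either side of 0 depending on the scaling, at 2.15, 0.19 and −0.26 with TMM.

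In CPM scaled by library totals, *Sparc* and *Cd44* were set apart by how evenly the 2 monocyte libraries shared their reads. That evenness rests on library totals. With TMM factors the 2 values were 264421 and 17785 CPM for *Sparc*, 1730 and 141 for *Cd44*, and 195 and 294 for *Timp2*. The shares below use library totals. The higher library held 68.7% of the summed monocyte CPM of *Sparc* and 64.4% of that of *Cd44*. For *Timp2* it held 91.1%, for *Fn1* 94.7%, for *Tgfbi* 98.2% and for *Thbs1* 98.7%, and for *Vcan* and *Lgals3* it held 100.0%. Such imbalance was common: of 2981 genes with at least 100 monocyte reads, 49.9% had 99% or more of their CPM in 1 library and 5.64% had under 75%. Of the 8 members with that many reads, 25.0% reached 99% and 25.0% had under 75%. On this scale, a monocyte mean for 6 of these 8 genes is thus largely the value of 1 library.

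**Figure D3:**
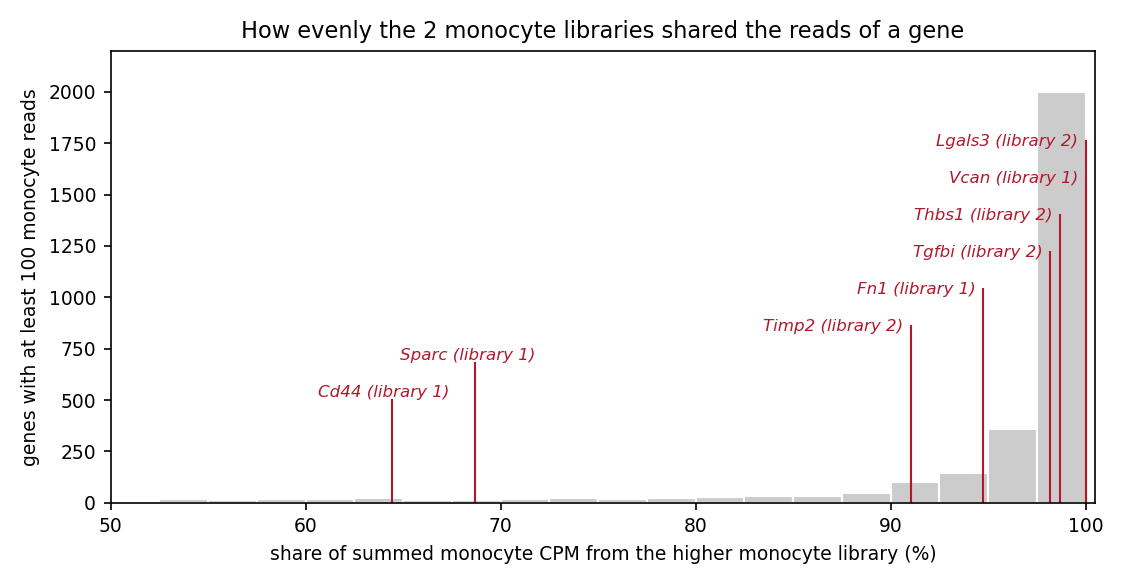
Share of the summed monocyte CPM that came from the higher of the 2 monocyte libraries (x axis, 50 to 100%) for 2981 genes (grey bars, number of genes) and for 8 members (red lines, labelled with the higher library; their height carries no value). *Cd44* and *Sparc* lie at 64.4 and 68.7%, and the other 6 lie above 90%. CPM are scaled by library totals, and the shares differ with TMM factors.

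The genes with the most similar profiles over the 5 libraries were found as those with the smallest Euclidean distance between log2(CPM + 1) values centred per gene, among 8643 genes. They were *Cd84* and *Asah1* for *Sparc*, with distances of 0.55 and 0.57. *Cd84*, which encodes a SLAM-family receptor, had 9490 and 7060 reads in monocytes, against 2137, 4334 and 1713 in microglia. For *Cd44* they were *Hipk2* (0.87) and *Rnf139* (1.90), and for *Fn1* *Rnf144b* (0.71) and *Foxj2* (0.78). The pair nearest to *Timp2* was *Fcer1g* (0.26), the shared signalling chain of Fc receptors, and *Cux1* (0.53). *Fcer1g* had 96 and 2011 reads in monocytes, against 9676, 10546 and 6598 in microglia. *Vcan* was nearest to *Ndufaf1* (2.31) and *Panx1* (2.47), and *Lgals3* to *Ccdc39* (0.33) and *Tceal8* (0.50). *Ndufaf1* had 3845 and 0 reads in monocytes, against 30, 35 and 0 in microglia. Values were not scaled by a gene's own spread, so distances are not compared between members. *Thbs1* was nearest to *G6pc3* (0.54) and *Os9* (0.74), *Tgfbi* to *Pex14* (0.90) and *Zfp870* (1.82), *Mmp14* to *Snrpd1* (0.31) and *Pms2* (0.44), and *Ecm1*, with 10 reads in all, to *Pcnx4* (0.67) and *Zeb2* (0.72).

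The other genes of the matrix were read from 7 lists that hold 174 genes besides the 10. Of these, 159 were in the count table, 134 had a read and 48 could be tested, and edgeR called 0 higher and 0 lower in monocytes at an adjusted p under 0.05. Without adjustment, 3 had p under 0.05 with a higher level in monocytes and 0 with a lower one, against 8.52% and 3.35% of all genes tested. Those 3 were *Spp1*, *Lgals9* and the integrin subunit gene *Itga4*. Limma-voom called 0. DESeq2 gave an adjusted p to 29 of the 48 and called 4 (*Itga4*, *Lgals9*, *Spp1* and *Tlr4*, all higher), where it called 19.5% of all genes with an adjusted p higher. Without monocyte library 1 edgeR called 2 (*Itga4* and *Spp1*), where it called 2.61% of all genes higher. In FPKM, 0 of the 48 lay above all microglia libraries in each monocyte library and 24 lay below them in each, where the shares over all genes tested were 0.673% and 48.0%. Their median log2 fold change was −0.46, against −1.11 over all genes tested, and −3.83 against −4.73 with library totals.

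Only 2 of 27 further matricellular and adhesive glycoprotein genes could be tested. *Spp1* encodes osteopontin, a secreted phosphoprotein of activated macrophages. It was at 3.02 and 1032 FPKM in monocytes, against 73.6, 187 and 3.91 FPKM in microglia, so the highest and the lowest value were both from monocytes. Its fold change was 4.83 on the log2 scale (edgeR, SE 2.25, adjusted p = 0.349). Without monocyte library 2 its sign turned to −0.86. *Postn*, which encodes the matricellular protein periostin, had 1 and 1 reads in monocytes, against 51, 11 and 190 in microglia (adjusted p = 0.628 from edgeR). *Thbs2*, another thrombospondin gene, had 2 and 162 reads, against 7, 4 and 1, and *Emilin2* had 0 in monocytes, against 47, 0 and 0 in microglia. Neither passed the expression filter. None of the 7 tested genes of hyaluronan synthesis, breakdown and binding passed with edgeR (0 also at an unadjusted p under 0.05 and with limma-voom). DESeq2 gave an adjusted p to *Stab1* alone among them and did not call it. *Stab1*, which is on this list and encodes a scavenger receptor that takes up SPARC, was at 0.313 and 0.403 FPKM in monocytes, against 25.7, 4.96 and 61.8 FPKM in microglia. All microglia libraries lay above the monocytes in FPKM, while edgeR gave −2.91 on the log2 scale (SE 2.17, adjusted p = 0.541). The hyaluronan-binding gene *Hmmr* was at 0.0539 and 0.0565 FPKM in monocytes, against 2.80, 5.84 and 0.0313 FPKM in microglia, and the hyaluronidase gene *Hyal2* at 0.267 and 0.0932, against 0.0916, 0.842 and 6.60. *Ugdh*, whose enzyme makes a sugar precursor of hyaluronan, had 0 and 3 reads in monocytes, against 148, 136 and 0 in microglia.

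Among proteoglycan core proteins 0 of 5 tested genes passed with edgeR, limma-voom or DESeq2, or at an unadjusted p under 0.05. DESeq2 gave some of these 5 no adjusted p. *Srgn*, which encodes serglycin of secretory granules, was at 17.6 and 26.0 FPKM in monocytes, against 43.3, 58.4 and 57.4 FPKM in microglia. That order was opposite in sign to the 2.41 that edgeR gave with TMM on the log2 scale (SE 1.92, adjusted p = 0.555). *Sdc3*, a syndecan gene, was at 0.782 and 30.4 FPKM in monocytes, against 132, 20.7 and 5.87 FPKM in microglia, *Sdc4* at 0.345 and 0.241, against 15.2, 9.18 and 0.200, and *Cspg4* (NG2) at 0.196 and 1.09, against 12.6, 2.91 and 0.0996. Of 9 tested metalloproteinase and inhibitor genes 0 passed by any of these criteria, though DESeq2 gave some of them no adjusted p. In FPKM, which is scaled by library totals, 7 were lower in both monocyte libraries, against 48.0% of all genes tested. With TMM 2 of the 9 had a log2 fold change above 0, and the median was −1.64, against −1.11 over all genes tested. The sheddase gene *Adam10* was at 0.655 and 1.81 FPKM in monocytes, against 32.7, 30.8 and 37.6 FPKM in microglia (adjusted p = 0.710 from edgeR), and *Adam15* was at 0.333 and 0.575, against 58.3, 7.25 and 3.98. *Mmp2*, whose proenzyme is activated with the help of the products of *Mmp14* and *Timp2*, had 2 and 0 reads in monocytes, against 578, 224 and 24 in microglia. *Adam17*, the sheddase of TNF, was at 0.532 and 70.2 FPKM in monocytes, against 43.3, 43.6 and 2.99 FPKM in microglia.

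**Figure D4:**
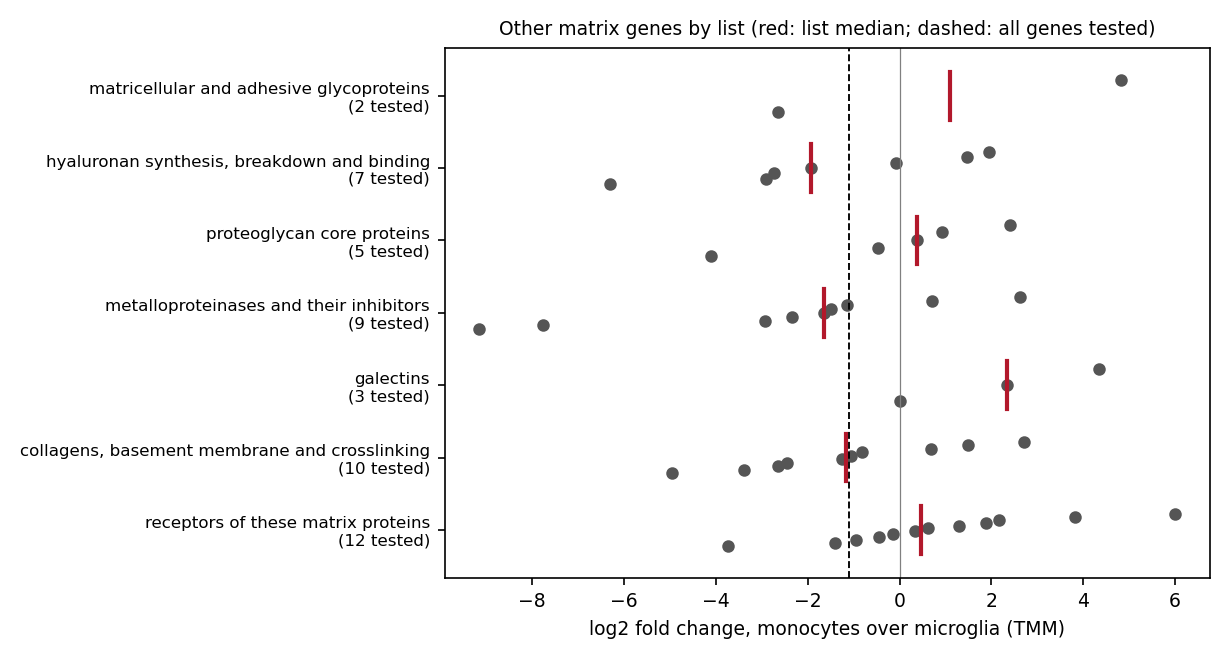
Log2 fold change of monocytes over microglia (x axis, TMM) for the tested genes of 7 matrix lists without the 10 members (points; red lines are list medians; the dashed line is the median of all genes tested at −1.11). None passed an adjusted p under 0.05 from edgeR, and the points of 6 of the 7 lists fall on both sides of 0.

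Among 3 tested galectin genes 0 passed with edgeR, and *Lgals9* passed at an unadjusted p under 0.05 and with DESeq2, not with limma-voom. It was at 30.8 and 320 FPKM in monocytes, against 109, 75.8 and 11.1 FPKM in microglia, and edgeR gave 4.35 on the log2 scale (SE 2.16, adjusted p = 0.402). The galectin-3-binding protein gene *Lgals3bp* was far more abundant than *Lgals3* and was at 10.3 and 1304 FPKM in monocytes, against 1639, 543 and 38.3 FPKM in microglia. *Lgals8* was at 0.159 and 3.87, against 17.0, 19.4 and 1.47, and *Lgalsl* had 0 and 1 reads, against 2, 71 and 0. Of 10 tested genes of collagens, basement membrane and crosslinking 0 passed by any of these criteria, though DESeq2 gave some of them no adjusted p. In FPKM 6 were lower in both monocyte libraries, again against 48.0% of all genes tested. With TMM 3 of the 10 had a log2 fold change above 0, and the median was −1.16, against −1.11 over all genes tested. The abundant ones were enzymes of collagen modification, such as *P4ha1* (0.427 and 4.48 FPKM in monocytes, against 29.5, 50.5 and 29.2 in microglia), *Plod3* (0.194 and 0.340, against 54.2, 10.4 and 34.6) and *Plod1* (0.692 and 0.295, against 35.7, 10.4 and 12.5). *Col15a1* was at 0.0922 and 0.0967 FPKM, against 11.02, 3.53 and 6.20. Among receptors of these proteins 0 of 12 passed with edgeR or limma-voom, against 1 at an unadjusted p under 0.05 (*Itga4*) and 2 with DESeq2 (*Itga4* and *Tlr4*), all higher in monocytes. *Cd47*, a receptor of thrombospondin-1, was at 1.05 and 38.1 FPKM in monocytes, against 87.0, 104 and 104 FPKM in microglia. *Itgb5* was at 37.1 and 58.7, against 346, 71.9 and 83.0, *Lrp1* at 13.99 and 57.4, against 194, 38.3 and 60.2, and *Tlr4* at 9.59 and 104, against 5.59, 19.7 and 35.6. For *Itgb5* edgeR with TMM gave the opposite sign to that FPKM order, 2.18 on the log2 scale (SE 2.04, adjusted p = 0.602). *Itga4*, a chain of a fibronectin receptor, had 33 and 950 reads in monocytes, against 64, 120 and 6 in microglia (adjusted p = 0.176 from edgeR).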

How the data were processed

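RNA was sequenced from 2 monocyte and 3 microglia libraries after ultra-low input amplification. The authors used STAR (version 2.5.2a, per the submitters' processing notes) to align to GRCm38, and deposited raw counts of read pairs on genes of GENCODE vM12. The deposited FPKM are per kilobase of gene and library total; for all 5750 genes read in every library, the length implied by counts and FPKM was equal between libraries within 0.1%. Other samples' columns, 4 in the count table and 4 in the FPKM table, were left out. Deposited log2 CPM and tables of the authors' own fold changes and p-values were not used.

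Monocytes were set against microglia in edgeR 4.0.16 under R 4.3.3 (TMM, filter on low expression by group, Benjamini-Hochberg over 10105 genes); limma-voom 3.58.1, DESeq2 1.42.0, library totals, RLE factors, no filter and leaving out each library were alternatives. DESeq2 gave no adjusted p to 5049 genes, and these stay out of its counts. TMM-scaled CPM use the library sizes of the genes tested times the TMM factors. Standard errors given for edgeR were derived from its test, as the absolute log2 fold change over the square root of the F statistic. Code was tested on simulated data. Summaries and plots used pandas 2.3.3, numpy 2.4.6, scipy 1.17.1 and matplotlib 3.10.9 under Python 3.11.15. The members and lists were chosen with earlier results of these data known. Named genes were the 10 members, up to 4 genes per matrix list with the highest mean FPKM of the 2 groups, and the 2 nearest profiles per member, without predicted, Rik, -ps and mitochondrially encoded genes. *Itga4* and the markers *Cldn5*, *Kdr*, *Slc1a2*, *Slc1a3*, *Col3a1* and *Pdgfrb* were named after their values were seen. Cell type markers were named where at 0 or highest. Coordinates are from GENCODE vM21 (GRCm38) and promoters from RefSeq (GRCm38.p6). For 0 reads, 3 counts were taken as the upper limit, which covers counting error alone and not molecules lost before amplification. Libraries are named in the order of their label numbers. The study counts its groups in mice, but the labels tie no library to a mouse, so p-values measure the spread between these libraries.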

Additional observations from a re-analysis of the deposited data

How the results depend on the processing

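Scaling and single libraries set most of these values. Monocyte library 1 had the fewest counts, so genes with few reads there are measured least precisely. Over all genes tested, 6 were called higher in monocytes with edgeR, against 32 with limma-voom, 987 with DESeq2, 0 with library totals, 7 with RLE factors, 70 with no filter and 0 to 343 with 1 library left out. Genes called lower numbered 0, and 100 with DESeq2. Among the 10 genes the count called higher was 1, against 2 with limma-voom, 5 with DESeq2, 0 with library totals or no filter and 0 to 4 with 1 library left out. Other matrix genes called numbered 0, against 4 with DESeq2 and 0 to 2 with 1 library left out. The count of the 10 genes higher in every monocyte library used was 2, 3 with TMM-scaled CPM and 2 to 4 with 1 library left out, and the count lower was 1, 0 with TMM-scaled CPM and 1 to 3. With fewer libraries, groups without overlap are easier to reach. No share over all genes is given for the counts with 1 library left out, so nothing is read from those. Of all genes tested, 5.00% were higher and 21.3% lower in both with TMM-scaled CPM, against 0.673% and 48.0% in FPKM. Leaving mitochondrially encoded genes out of the totals kept both counts and moved the median monocyte share of 1 library to 96.7%, against 96.5%. Both shares use CPM scaled by library totals, not TMM factors.

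Signs of log2 fold changes turned as follows. With library totals they were −0.55 for *Thbs1*, −1.52 for *Tgfbi*, −1.27 for *Srgn*, −1.77 for *Sdc3*, −3.01 for *Cspg4*, −0.19 for *Lgals3bp*, −2.65 for *Lgals8*, −1.80 for *Itgb5* and −1.46 for *Lrp1*. With no filter they were −0.23 for *Tgfbi*, −0.25 for *Cspg4* and −0.45 for *Lgals8*. *Timp2* turned to 0.38 with DESeq2 and 0.37 with RLE factors, *Cd47* to 0.66 with both, and *Hyal2* to 1.30 with limma-voom. With 1 library left out, values ranged from −6.34 to 7.69 for *Lgals3*, −1.43 to 3.48 for *Thbs1*, −3.07 to 4.12 for *Tgfbi*, −0.86 to 5.52 for *Spp1*, −3.50 to 0.040 for *Hyal2*, −1.80 to 1.66 for *Sdc3*, −0.79 to 0.80 for *Cspg4*, −1.72 to 3.27 for *Adam17*, −1.92 to 3.02 for *Lgals3bp*, −2.24 to 0.32 for *Lgals8* and −2.83 to 0.30 for *Cd47*. Apart from construction (fewer genes tested, fewer libraries), the cause was not tested. No paired analysis was possible because monocyte and microglia libraries share no replicate number.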
